A study of Mus musculus with 16 samples.

Results

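The genes described here encode the subunits of respiratory chain complexes I to IV and cytochrome c, and their transcripts were followed from non-tumour liver to tumour in 8 transgenic mice. Members were all genes whose symbol matched Nduf followed by a, b, c, s or v and a number, Sdha to Sdhd, any Uqcr symbol, Cox4 to Cox8, Cyc1 or Cycs, taken from array rows that the platform annotation gives exactly 1 symbol. The row of highest mean over the arrays stood for a gene. This gave 64 members out of 22180 genes with such a row: 33 of complex I, 4 of complex II, 9 of complex III, cytochrome c itself and 17 of complex IV. The symbol rule uses no measured value.

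All 8 mice were on a C57BL/6J background, were killed at 18 months of age and carried a c-MYC transgene that drives expression in the liver through woodchuck hepatitis virus DNA. The labels give 4 of them the genotype MYC+/+, REG3A-/- (MYC mice) and the other 4 MYC+/+, REG3A+/+ (MYC/REG3A mice), which carry a REG3A transgene as well; REG3A is a secreted C-type lectin. Both genotypes therefore have the MYC transgene, and there was no liver without it. From each mouse 1 tumour and 1 piece of non-tumour liver were dissected, which gave 4 groups of 4 samples: MYC non-tumour, MYC tumour, MYC/REG3A non-tumour and MYC/REG3A tumour. Values are log2 expression levels from 1-colour Affymetrix arrays, so a difference of 1 is a change by a factor of 2.

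The respiratory chain passes electrons from food to oxygen in the inner mitochondrial membrane and stores the energy as a proton gradient. Complex I takes electrons from NADH and complex II takes them from succinate; both pass them to ubiquinone. Complex III moves them from ubiquinone to cytochrome c, and complex IV hands them to oxygen. The catalytic core of complexes I, III and IV is partly encoded in mitochondrial DNA, whereas the subunits described here are all encoded in the nucleus. Liver relies on this chain for oxidising fatty acids and amino acids, and in other settings its genes are known targets of MYC and of the nuclear respiratory factors.

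The arrays had near-equal distributions, with medians of 4.90 to 4.97, lower quartiles of 3.71 to 3.77 and maxima of 13.55 to 13.68. A gene was tested if its level exceeded the array's median on at least 4 of the 16 arrays. This held for 60 of the 64 members and for 13555 genes in all. The members that were not tested were Cox7b2, Cox8b and Cox8c, which encode complex IV isoforms of other tissues, and Uqcrh-ps1, a pseudogene. Cox7b2 and Uqcrh-ps1 lay below the lower quartile on all 16 arrays, Cox8b on 3, and Cox8c lay between the lower quartile and the median on all 16. Another 10 rows that match the symbol rule carry several symbols and were left unnamed, so that Cox6c, Ndufb2, Ndufb4, Ndufs6 and Uqcr10 are not among the members. The chain is measured here as transcripts, relative to the other genes on each array, and neither protein nor respiration was measured.

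In MYC mice, some members of each of complexes I to IV were higher in the tumour. By limma with the mouse as a block, 25 of the 60 tested members rose in the tumours and 1, Ndufb7, fell (Benjamini-Hochberg adjusted p of at most 0.05 over all 13555 genes, n = 4 mice). That is 41.7% of the tested members rising, beside 17.4% of all tested genes, and 1.67% falling, beside 15.8%. For complex IV alone the share rising was 21.4%, near that of all tested genes. The median change of the 60 was 0.34 on the log2 scale, beside -0.03 over all tested genes. All 25 that rose were higher in each of the 4 mice, and in 21 of them the lowest tumour lay above the highest non-tumour liver. These 25 were picked by their rise in the same arrays, so this is no separate evidence. Over the 60 tested members, 38 were higher in all 4 mice (63.3%, beside 23.4% of all tested genes). A gap between the tissues with the tumours on top was found for 29 of the 60 (48.3%, beside 16% of all tested genes). The changes were modest: from 0.34 for Ndufs8 to 1.06 for Uqcr11 among those that rose.

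**Figure D1:**
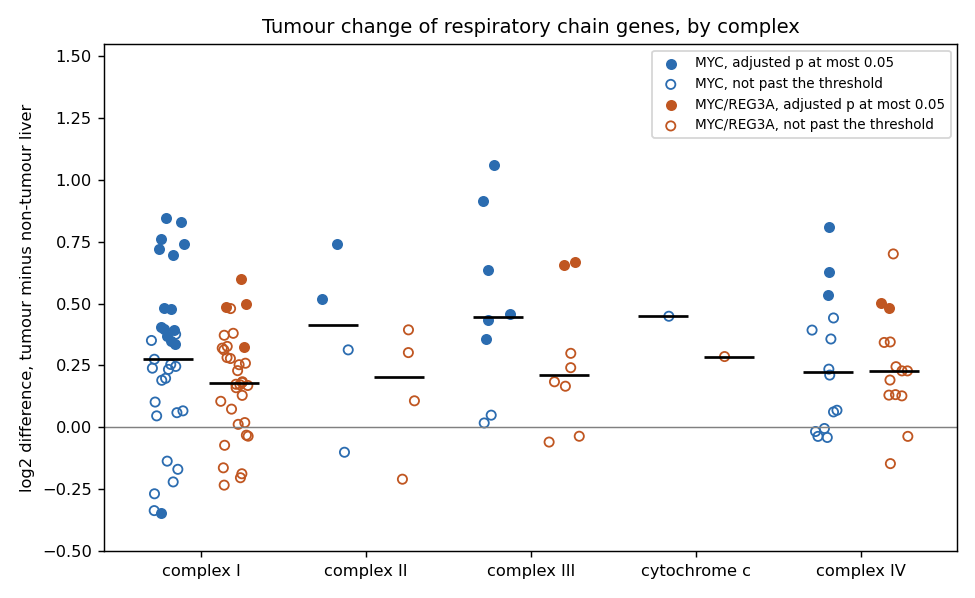
Change of each tested member in the tumour, as the log2 difference of tumour minus non-tumour liver (y axis), by complex (x axis), with MYC mice in blue and MYC/REG3A mice in orange. Filled points have a limma adjusted p of at most 0.05, open points do not, black lines are medians and horizontal jitter only separates points; complex III holds the 2 highest points in MYC mice, at 1.06 and 0.92.

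Per mouse, the median change of the 60 members was 0.17, 0.22, 0.26 and 0.47 in MYC mice 1 to 4. Mouse 4 had the highest median. Its non-tumour liver had the lowest median member level of the 4 MYC non-tumour samples, at 8.79 against 8.94 to 9.11 in the others. Its tumour had the highest of the 4 MYC tumours, at 9.49 against 9.27 to 9.45. Without mouse 4 the count of members called fell from 26 to 13, with the median change at 0.25, and the calls over all genes fell from 4505 to 2975. The 13 members that stayed called whichever MYC mouse was left out were Ndufa2, Ndufa6, Ndufa10, Ndufb5, Ndufb9, Ndufc1, Ndufs1, Sdhd, Cyc1, Uqcr11, Uqcrc1, Cox6b1 and Cox7a2.

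Dissected liver holds other cells beside hepatocytes, and markers of several of these cells differed between the tissues. Of the listed markers of sinusoidal endothelium, 10 of 12 were lower in MYC tumours and 8 of 12 in MYC/REG3A tumours, where Flt4 was higher. For macrophages and Kupffer cells 9 of 12 were lower in either genotype, for stellate cells 7 and 6 of 11, and for B and plasma cells 4 and 3 of the 5 tested. The summed level of the endothelial markers (log2 of the summed linear values) ran from 12.37 to 13.08 in MYC non-tumour liver and from 11.61 to 11.83 in MYC tumours, and from 12.18 to 12.54 and 11.39 to 12.28 in MYC/REG3A mice. For macrophage markers the ranges were 12.11 to 13.63 and 11.49 to 12.34 in MYC mice, and 12.40 to 12.93 and 10.74 to 12.13 in MYC/REG3A mice; for stellate cell markers they were 12.59 to 13.23 and 11.45 to 12.14, and 12.39 to 12.82 and 10.70 to 12.45. Hepatocyte markers, which check the labelled tissue, summed to 15.79 to 16.06 over all 16 arrays, and 4 of 11 were lower in MYC tumours and 2 of 11 in MYC/REG3A tumours. Among the lists with fewer tested genes, 2 of 4 bile duct and 2 of 3 neutrophil markers were lower in MYC tumours and none in MYC/REG3A tumours; of T and NK cells, adipocytes and striated muscle or brown fat, 0 of 4, 0 of 1 and 0 of 3 were called in either. No marker of the lists of endothelial, macrophage, stellate, B, hepatocyte and T cells lay below the lower quartile on all arrays; of the bile duct list this held for Cftr and of the muscle and brown fat list for Myh1. In bulk tissue, fewer cells of a type cannot be told apart from less RNA per cell. The part of these shifts in the changes of the respiratory chain was not tested.

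Complex I, the NADH dehydrogenase, had 14 of its 33 tested members higher in MYC tumours and 1 lower, with a median change of 0.28. The leading members by p-value were all accessory subunits, which surround the catalytic core. Ndufa2, an accessory subunit of the matrix arm, had levels of 8.29, 8.25, 8.44 and 8.25 in the non-tumour livers of MYC mice 1 to 4 and of 8.71, 9.36, 9.13 and 9.41 in their tumours. Every tumour lay above every non-tumour liver, and the change was 0.85 (SE 0.15, adjusted p = 0.00316). Ndufc1, a small membrane-arm subunit, was at 6.68, 6.99, 6.71 and 6.49 in non-tumour liver and at 7.67, 7.45, 7.38 and 7.41 in tumours, again with no overlap. It rose by 0.76 (SE 0.13, adjusted p = 0.00303), with its largest step in mouse 1. Ndufb9, a member of the LYR protein family in the membrane arm, ran at 10.42, 10.66, 10.45 and 10.24 in non-tumour liver and 10.88, 11.34, 11.44 and 11.07 in tumours, and Ndufa10 at 10.16, 10.39, 10.30 and 10.17 in non-tumour liver and 10.68, 11.02, 10.95 and 11.25 in tumours. Neither overlapped between the tissues; their changes were 0.74 (SE 0.14) and 0.72 (SE 0.13), with adjusted p-values of 0.00363 and 0.00385.

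Of the 6 core subunits of complex I among the members, the group that holds the flavin and the iron-sulfur clusters, 4 rose: Ndufs1, Ndufs3, Ndufs8 and Ndufv1. This grouping into core and accessory subunits was made after the values were seen and has no test. The other accessory subunits that rose were Ndufa6, Ndufa12, Ndufb3, Ndufb5, Ndufb6 and Ndufs4, from 0.35 for Ndufa12 to 0.70 for Ndufb5. The 6 core subunits had a median change of 0.37 and the 26 other common subunits one of 0.24, with 10 of the 26 higher. Ndufs1, the largest core subunit, stood out among them, at 8.46, 8.81, 8.17 and 8.22 in non-tumour liver and 8.95, 9.39, 9.04 and 9.59 in tumours (change 0.83, SE 0.18, adjusted p = 0.00665); it was singled out after its values were seen. The core subunits Ndufv2 and Ndufs7 did not pass the test, at 0.28 (adjusted p = 0.0867) and 0.24 (adjusted p = 0.102), although their groups did not overlap.

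Some members of complex I were lower in the tumours. Ndufb7, an accessory subunit that is imported into the intermembrane space, was the only member lower in MYC tumours at the threshold. Its levels were 8.35, 8.63, 8.47 and 8.28 in non-tumour liver and 7.88, 8.39, 8.08 and 7.99 in tumours, lower in 4 of 4 mice, with the tumour of mouse 2 above the non-tumour livers of mice 1 and 4. The change was -0.35 (SE 0.10, adjusted p = 0.0211), and it no longer passed without MYC mouse 1 (adjusted p = 0.0838), mouse 3 (0.063) or mouse 4 (0.0556), or with only the arrays of MYC mice (0.052). In MYC/REG3A mice it was also lower in 4 of 4, at -0.20 (adjusted p = 0.188). Ndufa13 and Ndufv3 were likewise lower in all 4 mice of both genotypes without a call, at -0.27 (adjusted p = 0.0905) and -0.22 (adjusted p = 0.129) in MYC mice. In MYC mice 6.67% of the tested members were lower in all 4 mice, beside 23.6% of all tested genes. In MYC/REG3A mice the shares were 8.33% and 20.9%. Ndufa1, a small membrane-arm subunit, had a mean change of -0.34 in MYC mice (SE 0.18, adjusted p = 0.188) and of -0.04 in MYC/REG3A mice (adjusted p = 0.922). Ndufv3 and Ndufa1 were named after their values were seen. Ndufa11, lower in all 4 MYC mice at -0.17, has another row on the array at 0.07, so its direction depends on the row.

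**Figure D2:**
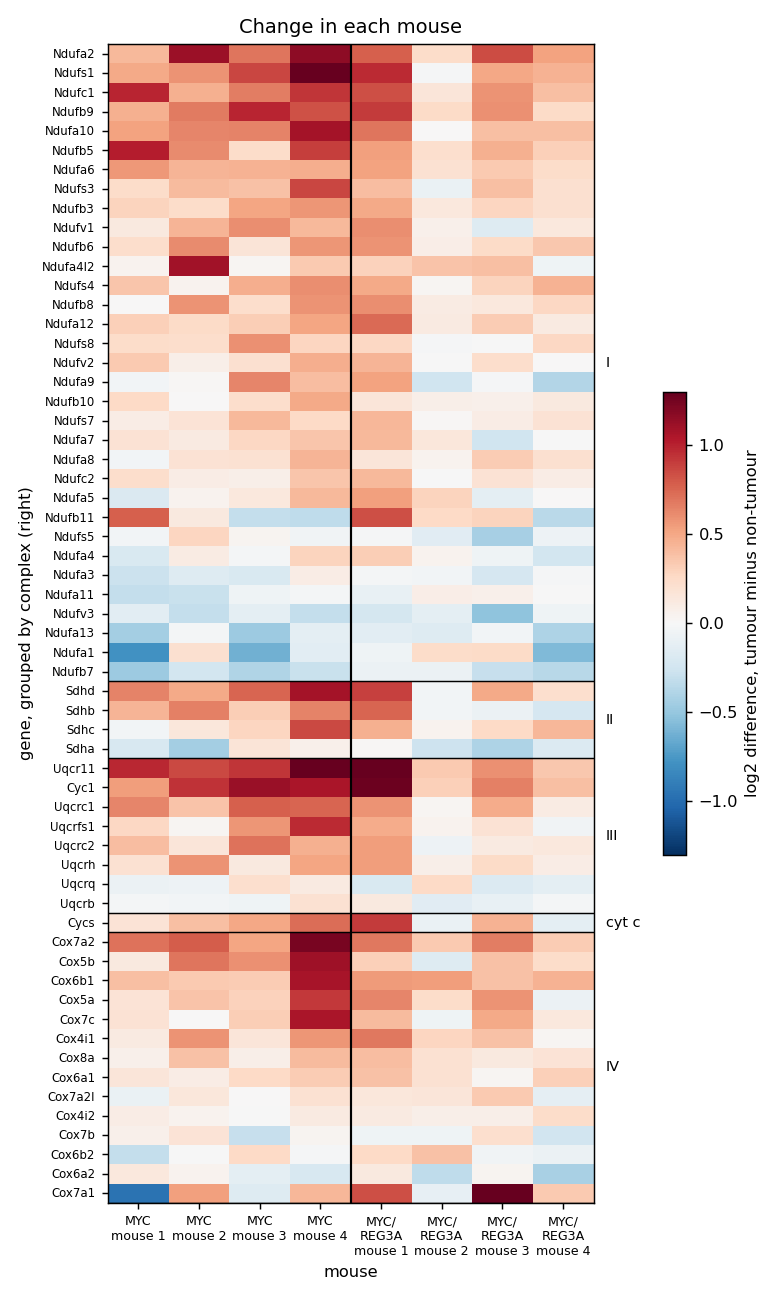
Change of each of the 60 tested members (rows, grouped by complex and ordered by the MYC change) in each of the 8 mice (columns), as the log2 difference of tumour minus non-tumour liver in colour, red for higher and blue for lower in the tumour; values past the end of the scale take its last colour. The columns of MYC mouse 4 and MYC/REG3A mouse 1 are the reddest, with member medians of 0.47 and 0.47, and MYC/REG3A mouse 2 is the palest, with a median of 0.06.

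Complex II, succinate dehydrogenase, is the complex shared with the tricarboxylic acid cycle, and 2 of its 4 members rose in MYC tumours, with a median of 0.42. Sdhd, a membrane anchor, was at 10.26, 10.69, 10.11 and 10.26 in MYC non-tumour liver and at 10.91, 11.18, 10.87 and 11.34 in tumours. The tumours lay above all non-tumour livers, with a change of 0.74 (SE 0.15, adjusted p = 0.00576). Sdhb, the iron-sulfur subunit, was at 8.24, 8.31, 8.19 and 8.05 in non-tumour liver and 8.68, 8.97, 8.51 and 8.70 in tumours, also without overlap (change 0.52, SE 0.16, adjusted p = 0.0286). Sdhc, the other anchor, was higher in 3 of 4 mice, at 0.31 (adjusted p = 0.123). Sdha, the flavoprotein that oxidises succinate, was at 10.94, 11.13, 10.84 and 10.97 in non-tumour liver and 10.74, 10.70, 11.001 and 11.05 in tumours, higher in mice 3 and 4 and lower in mice 1 and 2, with a change of -0.10 and a 95% interval of -0.37 to 0.17 (adjusted p = 0.559).

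Complex III, ubiquinol cytochrome c reductase, had the largest share of members called: 6 of 8 tested rose in MYC tumours, with a median of 0.45. Uqcr11, a small subunit next to the iron-sulfur protein, showed the largest change of any member. It was at 7.36, 7.48, 7.65 and 7.22 in non-tumour liver and at 8.34, 8.34, 8.58 and 8.70 in tumours, so that the lowest tumour was well above the highest non-tumour liver. The change was 1.06 (SE 0.18, adjusted p = 0.0025), a 2.08-fold rise. Cyc1, the cytochrome c1 that carries the electron to cytochrome c, was at 10.19, 10.31, 10.10 and 9.86 in non-tumour liver and 10.74, 11.25, 11.22 and 10.92 in tumours. The tissues did not overlap, and Cyc1 rose by 0.92 (SE 0.16, adjusted p = 0.00318), or 1.89-fold.

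The large scaffold subunits of complex III, Uqcrc1 and Uqcrc2, changed in the same direction. Uqcrc1 was at 10.71, 10.96, 10.50 and 10.54 in non-tumour liver and at 11.34, 11.34, 11.27 and 11.30 in tumours. It rose by 0.63 (SE 0.12, adjusted p = 0.00457). Uqcrc2 rose by 0.43 (SE 0.13, adjusted p = 0.0256). The Rieske iron-sulfur protein Uqcrfs1 and the hinge protein Uqcrh also passed, at 0.46 (adjusted p = 0.0441) and 0.36 (adjusted p = 0.0437), with overlap between the tissues. Uqcrb and Uqcrq, small membrane subunits, were at 0.02 and 0.05, with 95% intervals of -0.19 to 0.23 and -0.20 to 0.29. Cycs, the mobile cytochrome c, was higher in all 4 MYC mice without overlap, at 10.51, 10.42, 10.59 and 10.29 in non-tumour liver and 10.68, 10.82, 11.09 and 11.02 in tumours, but missed the threshold (change 0.45, SE 0.17, adjusted p = 0.0704). Its 4 other rows on the array, 2 of which hold the same values, changed by 0.31 to 0.56 in the same direction.

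Complex IV, cytochrome c oxidase, had 3 of 14 tested members higher and none lower in MYC tumours, with a median of 0.22. The 21.4% higher is near the 17.4% of all tested genes. The 14 include Cox4i2, Cox6a2, Cox6b2 and Cox7a1, isoforms of other tissues or conditions, none of which was called. The 10 common subunits held all 3 calls and had a median of 0.375, with 9 of the 10 above 0. Cox7a2, the form of this subunit found in liver, was at 10.14, 10.06, 10.20 and 9.74 in non-tumour liver and 10.84, 10.85, 10.71 and 10.97 in tumours. The groups did not overlap, and the change was 0.81 (SE 0.13, adjusted p = 0.0021), which is the lowest p of any member. Cox5b, a zinc-binding subunit on the matrix side, was at 10.82, 10.59, 10.68 and 10.52 in non-tumour liver and 10.95, 11.28, 11.27 and 11.61 in tumours (change 0.63, SE 0.15, adjusted p = 0.0125). Cox6b1, which joins the monomers of the dimer, was at 8.23, 8.13, 8.38 and 7.77 in non-tumour liver and 8.62, 8.48, 8.71 and 8.84 in tumours (change 0.53, SE 0.13, adjusted p = 0.0125). Both were free of overlap, and in both the step was largest in mouse 4, at 1.10 and 1.07. Cox5a and Cox4i1, which sit together on the matrix side, were higher in 4 of 4 mice without overlap and did not pass, at 0.44 (adjusted p = 0.0513) and 0.36 (adjusted p = 0.0633). Cox7b lay at 11.45, 11.46, 11.69 and 11.51 in non-tumour liver and 11.52, 11.64, 11.39 and 11.54 in tumours, with the tissues intermixed and a change of -0.005.

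Complex IV has paired isoforms whose use depends on tissue, development or oxygen, and the pairs could be compared by their changes only, since levels of different rows are not comparable. Cox6a1, the form of liver, was at 0.21 in MYC mice (adjusted p = 0.123), and Cox6a2, the form of heart and muscle, at -0.04 (adjusted p = 0.839). Cox4i2, induced by low oxygen in other tissues, was at 0.06, with a 95% interval of -0.13 to 0.26. Cox6b2, known from testis, was at -0.02 (-0.29 to 0.26), and Cox7a2l, which links complexes III and IV, at 0.07 (-0.16 to 0.30). Cox8a, the ubiquitous form of its subunit, was at 0.24 (adjusted p = 0.105) while Cox8b and Cox8c were below the filter. Ndufa4, now counted to complex IV and listed under complex I by its symbol, was at 0.05 (adjusted p = 0.794), and its homologue Ndufa4l2, known as a target of the hypoxia response, at 0.38 (adjusted p = 0.117), with mouse 2 at 1.09 and the other 3 at 0.03 to 0.34. None of the 5 tested isoforms of other tissues or conditions (Cox4i2, Cox6a2, Cox6b2, Cox7a1, Ndufa4l2) was called in either genotype.

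Cox7a1, the heart and muscle form of Cox7a, varied widely between mice. In MYC mice it was at 5.89, 5.10, 5.83 and 5.03 in non-tumour liver and 4.93, 5.64, 5.66 and 5.46 in tumours, with a mean change of -0.04 made of shifts that included -0.96 in mouse 1 and 0.54 in mouse 2. In MYC/REG3A mice it was at 4.89, 5.41, 5.12 and 5.36 in non-tumour liver and 5.73, 5.30, 6.85 and 5.70 in tumours. Here the tumour of mouse 3 stood above every other array, and the mean change of 0.70 (SE 0.30) had an adjusted p of 0.151 and was 0.36 without that mouse. The summed level of the muscle and brown fat markers ran from 7.56 to 7.88 over all arrays.

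In MYC/REG3A mice fewer members passed. Of the 60, 8 rose in the tumours and 0 fell by limma, which is 13.3% rising beside 7.58% of all tested genes, and 0 falling beside 4.88%. At an unadjusted p under 0.05 there were 22 members (36.7%, beside 30.1% of all tested genes). The random block called 10 members and 2090 genes in all, and the fit without a block 9 and 1613. The median change was 0.21, beside -0.02 over all tested genes, with 48 of 60 members above 0 (80.0%, beside 47.2% of all tested genes). By complex the medians were 0.18 for I, 0.21 for II, 0.21 for III and 0.23 for IV. The 8 were Ndufa2, Ndufa6, Ndufb9 and Ndufc1 of complex I, Cyc1 and Uqcr11 of complex III, and Cox6b1 and Cox7a2 of complex IV. All 8 were among the 25 that rose in MYC mice, which makes 32.0% of that list. Both genotypes were tested in the same fit, where a gene has the same standard error in each. The calls in the genotypes are therefore not independent, and the overlap is no separate replication. The matching overlap over all tested genes is not given here. The 8 were higher in 4 of 4 MYC/REG3A mice, and 7 of the 8 had no overlap between the tissues. They were picked by their rise in the same arrays, so this is no separate evidence. Over the 60 tested members, 25 were higher in all 4 mice (41.7%, beside 19.5% of all tested genes). A gap with the tumours on top was found for 12 of the 60 (20%, beside 11.2% of all tested genes).

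The count depended on single mice. Without MYC/REG3A mouse 1, 3 or 4 it was 0, while the calls over all genes fell from 1690 to 281, 273 and 944; without mouse 2 it was 5. Per mouse, the median change of the 60 members was 0.47, 0.06, 0.25 and 0.12 in mice 1 to 4. Mice 2 and 4 also had the smallest spread of change over all tested genes, with SDs of 0.34 and 0.43 beside 0.62 to 0.73 in the other 6 mice of both genotypes, and mouse 1 had the lowest median member level in non-tumour liver (8.76, beside 8.95 to 9.06). Without mice 2 and 4 together 5 members were called and the median change was 0.34. Mice 2 and 4 had the lowest member medians of the genotype, so a higher median without them follows from their removal.

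The 8 members had the following values in MYC/REG3A mice. Cyc1 was at 9.89, 10.36, 10.36 and 10.22 in non-tumour liver and 11.16, 10.67, 11.02 and 10.61 in tumours, without overlap (change 0.66, SE 0.16, adjusted p = 0.0307). Uqcr11 was at 7.29, 7.67, 7.63 and 7.83 in non-tumour liver and 8.67, 8.01, 8.22 and 8.19 in tumours, also without overlap (change 0.67, SE 0.18, adjusted p = 0.038). For both, the step was largest in mouse 1, whose non-tumour liver held the lowest value of its group and whose tumour held the highest. Ndufa2 was at 8.39, 8.30, 8.44 and 8.56 in non-tumour liver and 9.17, 8.54, 9.29 and 9.08 in tumours; the tumour of mouse 2 lay just below the highest non-tumour liver, and the change was 0.60 (SE 0.15, adjusted p = 0.0316). Cox7a2 was at 10.02, 10.27, 10.31 and 10.13 in non-tumour liver and 10.70, 10.61, 10.97 and 10.46 in tumours (change 0.50, SE 0.13, adjusted p = 0.0347). Cox6b1 was the steadiest of the 8, at 8.14, 8.20, 8.42 and 8.17 in non-tumour liver and 8.70, 8.74, 8.80 and 8.62 in tumours, with 4 similar steps (change 0.48, SE 0.13, adjusted p = 0.0406). Neither gene overlapped between the tissues.

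The remaining 3 members called in both genotypes belong to complex I. Ndufb9 was at 10.41, 10.71, 10.71 and 10.49 in non-tumour liver and 11.32, 10.95, 11.30 and 10.74 in tumours (change 0.50, SE 0.14, adjusted p = 0.0404). Ndufc1 was at 6.58, 7.06, 6.93 and 6.90 in non-tumour liver and 7.41, 7.22, 7.51 and 7.28 in tumours (change 0.49, SE 0.13, adjusted p = 0.0409). In both genes all tumours lay above all non-tumour livers. Ndufa6, a LYR family subunit of the matrix arm, was at 10.31, 10.54, 10.47 and 10.42 in non-tumour liver and 10.83, 10.73, 10.81 and 10.65 in tumours (change 0.33, SE 0.09, adjusted p = 0.0485); in MYC mice it had changed by 0.48 (SE 0.09, adjusted p = 0.00443).

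**Figure D3:**
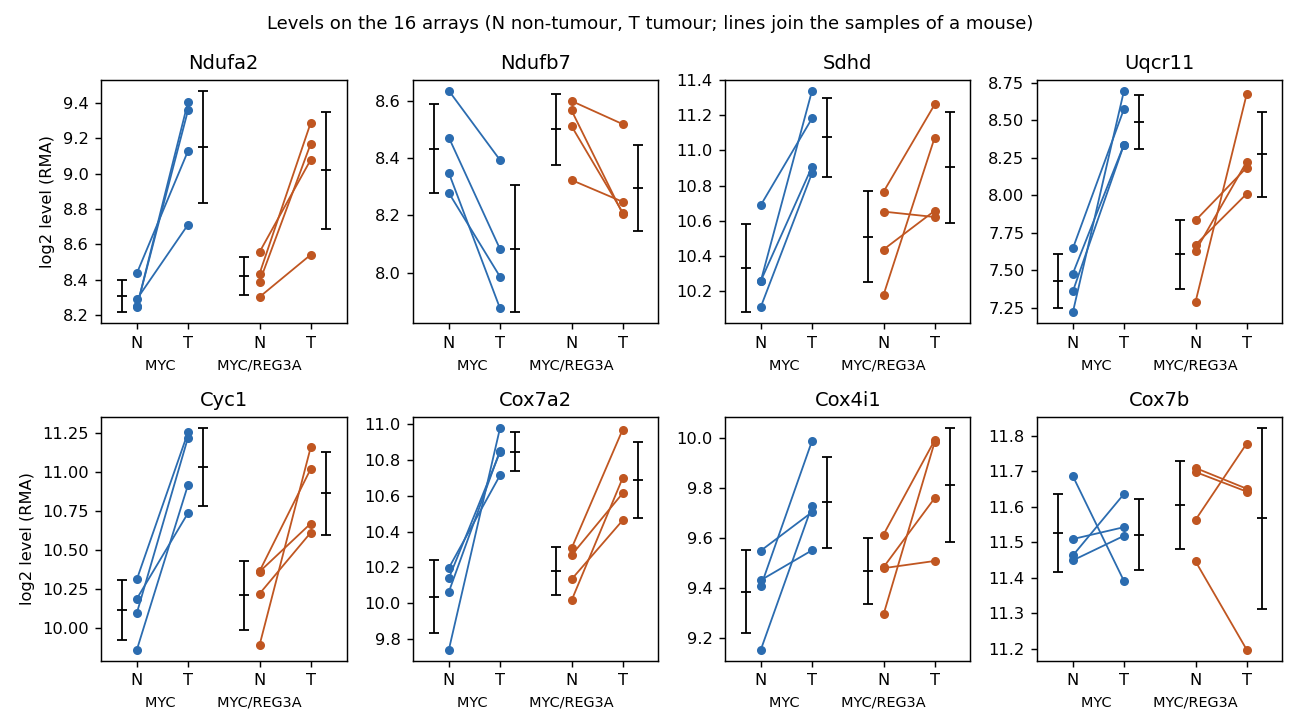
Log2 levels (y axis, a separate scale for each gene) of 8 members on the 16 arrays, with N for non-tumour liver and T for tumour, MYC mice in blue and MYC/REG3A mice in orange; lines join the samples of a mouse and black bars are means ± SD (n = 4). Uqcr11, Cyc1 and Cox7a2 show no overlap between the tissues in either genotype, Ndufb7 slopes down in 8 of 8 mice and Cox7b shows no common direction.

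No complex II member passed in MYC/REG3A mice. Sdhb was at 8.15, 8.66, 8.59 and 8.57 in non-tumour liver and 8.91, 8.63, 8.51 and 8.35 in tumours, higher in mouse 1 and lower in the other 3, with a change of 0.11 (adjusted p = 0.688). Sdhd was higher in 3 of 4 mice, at 0.39 (adjusted p = 0.116), Sdhc in 4 of 4, at 0.30 (adjusted p = 0.194), and Sdha lower in 3 of 4, at -0.21 (adjusted p = 0.28). Cycs was split as well, with changes of 0.91 and 0.45 in mice 1 and 3 and of -0.09 and -0.13 in mice 2 and 4. In complex III Uqcrc1 and Uqcrh were at 0.30 (adjusted p = 0.136) and 0.24 (adjusted p = 0.207). In complex IV Cox4i1 was at 0.34 (adjusted p = 0.114) and Cox6a1 at 0.23 (adjusted p = 0.148), the latter without overlap. The other isoforms named above were at 0.13 for Cox4i2, -0.15 for Cox6a2, 0.13 for Cox6b2, 0.13 for Cox7a2l, 0.23 for Cox8a, 0.02 for Ndufa4 and 0.25 for Ndufa4l2, all with adjusted p-values of 0.169 or more. Uqcrh-ps1, below the filter, was lower in all 4 MYC/REG3A tumours, at -0.39 in a limma fit of all 22180 genes without the filter (SE 0.09, adjusted p = 0.0403). This pseudogene row lay below the lower quartile on all 16 arrays, so its call says little. The other members below the filter, Cox7b2, Cox8b and Cox8c, did not pass in that fit (adjusted p = 0.98, 0.965 and 0.782).

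The tumour change itself was not shown to differ between the genotypes for any member. The change in MYC/REG3A minus that in MYC mice had 0 members called and 0 at an unadjusted p under 0.05 by limma; over all genes 1 was called (0.00738%) and 756 were at p under 0.05. All 60 intervals at 95% held 0, and their median half-width was 0.39, so differences of that size could have been missed. The median difference was -0.11, with 48 of 60 below 0 (80.0%, beside 50.7% of all tested genes), including all 25 that rose in MYC mice. Those 25 were picked by their rise in the same MYC arrays, so their lean is no separate evidence. By complex the medians were -0.11 for I, -0.23 for II, -0.26 for III and -0.02 for IV. Without MYC/REG3A mice 2 and 4, the median difference over the 60 was 0.01. These mice had the lowest member medians of their genotype, at 0.06 and 0.12. Leaving them out therefore raises the MYC/REG3A change, and the smaller difference is no separate evidence.

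The members of lowest p in that comparison show how wide the intervals are. Cox5b changed by 0.63 in MYC and by 0.19 in MYC/REG3A mice, a difference of -0.44 with an interval of -0.92 to 0.05 (adjusted p = 0.873). Uqcrc1 differed by -0.33 (-0.72 to 0.06), Sdhb by -0.41 (-0.90 to 0.08) and Ndufa10 by -0.35 (-0.77 to 0.08), with adjusted p-values of 0.873, 0.873 and 0.873. For Uqcr11 the difference was -0.39 (-0.95 to 0.17), and for Cox6b1 it was -0.05 (-0.47 to 0.36). Cox7a1 was the largest difference upwards, at 0.74 (-0.21 to 1.69, adjusted p = 0.873).

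**Figure D4:**
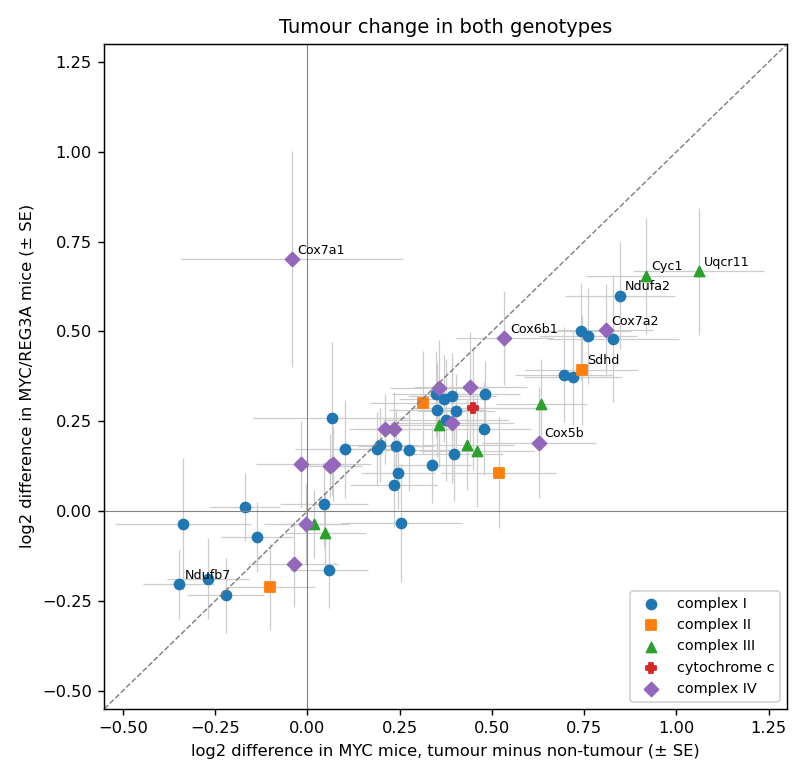
Log2 change in the tumour in MYC mice (x axis) and in MYC/REG3A mice (y axis) for the 60 tested members, with limma standard errors as bars, colours and shapes for the complexes and a dashed line of equal change. Of the 60 members 48 lie below the line, none of them with an interval of the difference that leaves out 0, and Cox7a1 lies farthest above it.

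Compared directly within a tissue, the genotypes gave no called member. In non-tumour liver, MYC/REG3A minus MYC gave 0 members called and 0 at an unadjusted p under 0.05 by limma (0.0% of all genes called, 739 at p under 0.05). The median difference was 0.10, from -0.27 for Cox7a1 to 0.29 for Sdhb. Of the 60 members, 50 were above 0 (83.3%, beside 48.9% of all tested genes). The members were measured on the same arrays, so this count of signs has no test. The same non-tumour arrays also enter the difference of the tumour changes, so the 2 leans are not separate evidence. Sdhb had levels of 8.24, 8.31, 8.19 and 8.05 in MYC and 8.15, 8.66, 8.59 and 8.57 in MYC/REG3A non-tumour liver, with the ranges overlapping in the value of MYC/REG3A mouse 1 (difference 0.29, interval -0.00467 to 0.59, adjusted p = 0.934). In non-tumour liver the markers of endothelial cells were lower in MYC/REG3A for 12 of 12, of stellate cells for 11 of 11 and of macrophages for 11 of 12. Of the tested markers this held for 4 of 4 of T and NK cells, 3 of 3 of neutrophils, 4 of 5 of B and plasma cells and 3 of 4 of bile duct. Hepatocyte markers were lower for 3 of 11, those of muscle and brown fat for 0 of 3 and of adipocytes for 0 of 1. Over all tested genes 51.1% were lower. None of the markers was called, and the part of these shifts in the members' values was not tested. Between the tumours of the genotypes, 0 members were called and 0 were at an unadjusted p under 0.05, while 3 genes in all were called (1 higher, 0.00738%, and 2 lower, 0.0148%) and 1437 were at p under 0.05. The median difference was -0.04, from -0.29 for Ndufa4l2 to 0.47 for Cox7a1. Ndufa6 had the lowest p, at -0.17 with an interval of -0.37 to 0.02 (adjusted p = 0.53).

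Promoters are shown for members called in both genotypes, as examples of genes higher in the tumours of both. The RefSeq promoter table used here, on assembly GRCm38.p6, was matched for 50 of the 64 members, among them 5 of these 8; promoters of Cyc1, Ndufa2 and Ndufb9 were not analysed here. Each line runs 5′ to 3′ on the strand of the gene from 250 bases before to 30 bases after the annotated start. Capitals mark matches, on either strand, to 4 short motifs known from respiratory chain promoters or for MYC: CACGTG, the E-box of MYC and MAX; GCATGCGC, from the site of NRF1; CCGGAAG, from that of the ETS family that includes GABPA; and AAGATGGCG, from that of YY1.
Cox6b1: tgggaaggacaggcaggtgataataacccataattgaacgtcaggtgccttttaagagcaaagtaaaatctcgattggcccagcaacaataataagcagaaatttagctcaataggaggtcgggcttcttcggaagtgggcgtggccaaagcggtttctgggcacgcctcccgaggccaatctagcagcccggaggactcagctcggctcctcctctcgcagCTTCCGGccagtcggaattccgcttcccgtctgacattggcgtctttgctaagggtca
Cox7a2: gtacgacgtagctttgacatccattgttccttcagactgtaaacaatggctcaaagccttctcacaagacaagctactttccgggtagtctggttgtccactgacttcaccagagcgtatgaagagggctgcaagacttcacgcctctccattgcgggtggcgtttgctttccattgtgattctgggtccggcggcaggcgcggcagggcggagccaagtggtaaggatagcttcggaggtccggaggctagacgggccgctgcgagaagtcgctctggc
Ndufa6: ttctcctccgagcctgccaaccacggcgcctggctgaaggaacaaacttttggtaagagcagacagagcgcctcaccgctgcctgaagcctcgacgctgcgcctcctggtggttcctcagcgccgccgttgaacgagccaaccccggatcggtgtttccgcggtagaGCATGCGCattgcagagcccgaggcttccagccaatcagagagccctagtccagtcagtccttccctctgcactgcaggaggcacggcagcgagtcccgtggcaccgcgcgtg
Ndufc1: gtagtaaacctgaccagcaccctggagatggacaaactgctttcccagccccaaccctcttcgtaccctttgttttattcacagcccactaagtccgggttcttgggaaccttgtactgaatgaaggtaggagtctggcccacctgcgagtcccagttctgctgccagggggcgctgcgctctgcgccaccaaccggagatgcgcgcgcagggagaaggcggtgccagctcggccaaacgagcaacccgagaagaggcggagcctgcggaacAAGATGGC
Uqcr11: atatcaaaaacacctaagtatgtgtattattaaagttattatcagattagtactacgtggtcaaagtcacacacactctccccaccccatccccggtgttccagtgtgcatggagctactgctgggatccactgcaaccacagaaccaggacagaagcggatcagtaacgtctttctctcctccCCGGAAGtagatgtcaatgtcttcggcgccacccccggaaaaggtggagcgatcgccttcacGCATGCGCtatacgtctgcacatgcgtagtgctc
Cox6b1 lies at chr7:30626085-30626364, Cox7a2 at chr9:79759824-79760103, Ndufa6 at chr15:82354262-82354541, Ndufc1 at chr3:51408926-51409205 and Uqcr11 at chr10:80406792-80407071, all on the minus strand. Cox6b1 has an ETS match starting at position -28, in the reverse orientation. Uqcr11 has an ETS match starting at position -66 and an NRF1 match at -4, and Ndufa6 an NRF1 match at -83, counted from the start site. The YY1 match of Ndufc1 starts 23 bases past the start site, and its last base lies beyond the stretch shown. Cox7a2 has none of the 4 in its window.

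Over the whole windows, which reach 50 bases past the start site, the NRF1 letters were found in 8 of the 50 members (16%) and in 2.8% of 27025 genes with a window. The ETS letters were in 11 members (22.0%) and 9.12% of all genes, the YY1 letters in 4 (8.0%) and 1.49%, and the E-box in 2 (4.0%, Ndufa7 and Ndufv1) and 7.24%. Among the 20 members with a window that rose in MYC tumours, 8 held the ETS letters, and among the 28 other tested ones 3 did, one of which is Ndufb7. For the NRF1 letters the same counts were 4 and 4, for YY1 2 and 2 and for the E-box 1 and 1. A match is a description of the letters, not a site in use, and this split was made after the calls were known and has no test.

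Outside complexes I to IV, other genes of the oxidative machinery were read from lists, by the same fits. The counts stand beside 17.4% of all tested genes higher in MYC tumours and 7.58% in MYC/REG3A tumours. Of 18 subunits and regulators of complex V, the ATP synthase, 8 were higher in MYC tumours and 4 in MYC/REG3A tumours, with none lower. Atpif1, the inhibitor of its hydrolysis, led in both, at 1.13 (SE 0.14, adjusted p = 0.000909) and 1.03 (SE 0.14, adjusted p = 0.00533). Assembly factors, which build the complexes without staying in them, were higher for 10 of 16 tested of complex I, 0 of 4 of complex II, 4 of 6 of complex III and 9 of 21 of complex IV in MYC mice. In MYC/REG3A mice the counts were 1, 0, 1 and 4, or 6.25%, 0.0%, 16.7% and 19.0%. For complex I assembly this is below the share of all tested genes. None of these factors was lower in either genotype at the threshold. The largest of these changes was that of Lyrm7, a chaperone of the Rieske protein, at 1.5 (SE 0.27, adjusted p = 0.00326) and 0.97 (SE 0.27, adjusted p = 0.0426). Cox19, a factor for copper delivery, was at 0.95 (adjusted p = 0.000482) and 0.75 (adjusted p = 0.0045), and Tmem186 was the factor of complex I called in both, at 0.57 (adjusted p = 0.0161) and 0.70 (adjusted p = 0.0179). Ndufab1, the acyl carrier subunit of complex I that the symbol rule leaves out, was at 0.19 (adjusted p = 0.305).

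Ubiquinone, the carrier between the complexes, is made by a set of enzymes of which 6 of 12 tested were higher in MYC tumours and 2 in MYC/REG3A tumours. Coq4, which organises that synthesis, was at 1.24 (adjusted p = 0.0012) and 0.77 (adjusted p = 0.022), while Coq10a, a lipid-binding chaperone of ubiquinone, fell by 0.74 in MYC tumours (adjusted p = 0.00319). Other dehydrogenases that feed ubiquinone were higher for 0 of 7, with Prodh of proline breakdown lower in MYC tumours at -0.53 (adjusted p = 0.0104). Of the tricarboxylic acid cycle and pyruvate dehydrogenase 7 of 16 were higher and 1 lower in MYC tumours and none called in MYC/REG3A tumours. The 1 lower was Pdha1, the regulated subunit of pyruvate dehydrogenase, at -0.69 (adjusted p = 0.00742). Of genes for mitochondrial membranes and cristae 7 of 13 and 4 of 13 were higher, led by the import receptor Tomm22 at 1.57 (adjusted p = 0.000885) and 0.95 (adjusted p = 0.0173).

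**Figure D5:**
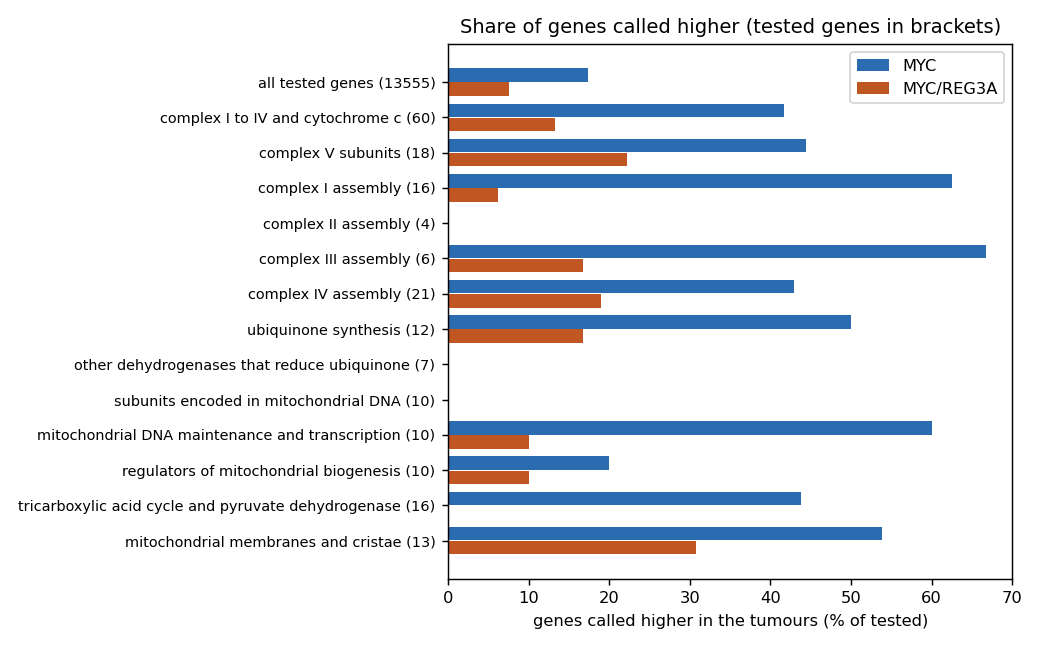
Share of tested genes called higher in the tumours (x axis, % of tested; limma adjusted p of at most 0.05) for all genes, the members and 12 lists of related genes (y axis, number tested in brackets), in MYC (blue) and MYC/REG3A mice (orange). The members stand at 41.7% and 13.3% and all genes at 17.4% and 7.58%; complex II assembly, the other dehydrogenases and the subunits of mitochondrial DNA have no bar because none was called higher.

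The subunits encoded in mitochondrial DNA could be judged only in part. Of 10 with a row, 9 lay near the top of the array's scale in every group; COX1, for example, averaged 13.20 in MYC non-tumour liver (SD 0.04) and 13.26 in MYC tumours (SD 0.04), close to the array maxima of 13.55 to 13.68. None of these 9 was called. ND6, the only one transcribed from the other strand of mitochondrial DNA, averaged 9.10 (SD 1.08) and 7.85 (SD 0.56) and was lower in 4 of 4 MYC mice, at -1.25 (SE 0.42, adjusted p = 0.0459). Most of it came from mice 3 and 4, at -2.88 and -1.75, against -0.30 and -0.08 in the other 2. In MYC/REG3A mice it was at -0.87 (adjusted p = 0.202).

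Genes that maintain and transcribe mitochondrial DNA were higher for 6 of 10 in MYC tumours and 1 of 10 in MYC/REG3A tumours. Twnk, the helicase of its replication, was called in both, at 0.87 (adjusted p = 0.00132) and 0.54 (adjusted p = 0.0241), and the transcription factor Tfb2m in MYC mice, at 1.0 (adjusted p = 0.00498). Tfam, which packages the DNA, was at 0.14 (adjusted p = 0.453) and 0.17 (adjusted p = 0.44). Of the regulators of mitochondrial biogenesis 2 of 10 were higher and 1 lower in MYC tumours, and 1 of 10 was higher in MYC/REG3A tumours. The shares higher are near the 17.4% and 7.58% of all tested genes. The coactivator Pprc1 was higher in both genotypes, at 0.73 (adjusted p = 0.0015) and 0.67 (adjusted p = 0.00782), and Ppargc1b in MYC mice, at 0.93 (adjusted p = 0.0183). Ppargc1a was at 0.56 (adjusted p = 0.0751) and 0.39 (adjusted p = 0.26). The transcription factors themselves did not pass: Nrf1 was at -0.12 and -0.03, Gabpa at 0.20 and 0.45 and Yy1 at 0.20 and 0.13, with adjusted p-values of 0.0575 or more. The Myc row fell in MYC tumours, by 0.59 (adjusted p = 0.00673), from a mean of 7.68 (SD 0.22) to 7.09 (SD 0.17), and in MYC/REG3A mice it averaged 7.97 (SD 0.94) and 7.83 (SD 1.05). Whether this row detects the endogenous transcript, that of the transgene or both is not stated in the sources used here.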

How the data were processed

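Total RNA of the 16 samples was hybridised to 1-colour Affymetrix arrays, and the deposited values are log2 expression levels that the authors made with Affymetrix Expression Console 1.4.1 and RMA, per the submitters' processing notes; the settings of RMA are not given in the sources used here, and the base of the log was read from the values. Of 41345 rows, 23521 carry 1 gene symbol in the platform annotation, 1814 several and 16010 none; only the first were named. The row of highest mean stood for a gene, and a gene was tested if it exceeded the array median on at least 4 arrays. Tumour and non-tumour liver were compared with limma 3.58.1 (R 4.3.3) on all 16 arrays with the mouse as a block, and genotypes within a tissue with the 4 group means and no block, each followed by Benjamini-Hochberg adjustment over the 13555 tested genes. The pairing comes from the labels, which give both samples of a mouse the same number; after the group means were removed, samples of a mouse correlated at 0.10 to 0.33, and 7 of 8 mice correlated best with their own tumour. Genes named by rule were, in each comparison, up to 4 members of lowest p per complex and up to 3 genes per list, the members called against their complex or not tested, Cyc1, Cycs, the Sdh genes, the isoform sets of complex IV, Ndufa4 and Ndufa4l2, and Myc, Ppargc1a, Nrf1 and Tfam; Cox7b, Flt4, Ndufa1, Ndufa7, Ndufa12, Ndufb3, Ndufb6, Ndufs1, Ndufs4, Ndufs7, Ndufv1 to Ndufv3, Uqcrq and Yy1 were named after their values were seen. The members and gene lists were chosen with earlier results of these data known. The number of arrays limits the precision. The fit was tested on simulated data. Alternatives left out the filter, raised it, averaged rows, recentred arrays, changed or dropped the block and left out mice.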

Additional observations from a re-analysis of the deposited data

Results flagged for a closer look

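Among 88 sets of 4 mouse changes tested with Dixon's criterion at the 95% level, 4 held a mouse far from the other 3, and chance flags about 1 in 20 sets. In MYC mouse 4, Cox6b1 changed by 1.07 on the log2 scale, with 0.33 to 0.39 in the other 3 MYC mice. In the same mouse Uqcrb changed by 0.19, with -0.06 to -0.02 in the others, and the median change over the complex I members was 0.42, with 0.21 to 0.23 in the others. Ndufs8 changed by 0.60 in MYC mouse 3 and by 0.23 to 0.28 in the others.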

How the results depend on the processing

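In MYC mice 26 members were called in all. The count was 22 to 27 with other filters, averaged rows, recentred arrays, a robust fit or no replicate block, 32 with a random replicate block and 19 with only the arrays of that genotype. Leaving out 1 mouse gave 13 to 28, with 13 without MYC mouse 4. In MYC/REG3A mice 8 were called, and 6 to 10 under those settings, with 9 without the replicate block, except 3 with only the arrays of that genotype. These are total counts. Without the filter on low values 5 of the 8 stayed called, and the pseudogene Uqcrh-ps1 was called lower. Leaving out 1 mouse gave 0 to 7, with 5 without MYC mouse 3 or 4 or MYC/REG3A mouse 2 and 0 without MYC/REG3A mouse 1, 3 or 4; leaving out MYC/REG3A mice 2 and 4 together gave 5. Fewer samples are part of each of these changes; no other cause was tested. The comparisons between genotypes called 0 members with and without the replicate block or with a random one. For single genes, 5022 of 5194 alternative values kept direction and side of the threshold, 133 lost the call, 39 gained one and 0 reversed a called value. These values include the comparisons between genotypes, where no member was called and no member's call could be lost. The 5022 are therefore no measure of how stable the calls are. Of the 26 members called in MYC mice, 13 stayed called whichever mouse was left out. Of the 8 in MYC/REG3A mice, 0 did. With 4 mice a genotype, the smallest change called among the members was 0.33 (Ndufa6 in MYC/REG3A mice).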
